A study of Mus musculus with 12 samples.

Results

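The mitosis genes are 39 genes whose products condense chromosomes, drive entry into mitosis, attach chromosomes to the spindle and divide the cell. They were matched by gene symbol to a list drawn up with earlier results of these data known, among the 36175 genes measured in B cells of Peyer's patches (PP), the lymphoid follicles of the small intestine, and each symbol was found once. Bulk RNA-seq was performed on 1 library per mouse from 6 sham controls and 6 stroke mice, which the sample labels call sham and brain injury. All mice were wild-type male C57BL/6JHsd mice aged 10 to 12 weeks. In stroke mice the middle cerebral artery was occluded for 1 h with a filament, and in sham controls the filament was inserted and withdrawn at once, so that the surgery was shared. PP B cells were isolated 18 h later by magnetic depletion of other cells, followed by a selection on CD45, because the first step left small amounts of epithelial and endothelial cells. The comparison asks how transcripts of PP B cells differed between stroke mice and sham controls.

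Cells that divide make most of these transcripts late in the cell cycle, shortly before mitosis, and degrade the proteins as mitosis ends, so that resting cells hold little of either. In PP of unchallenged mice, dividing B cells are found mainly in germinal centres, which form in response to gut microbes, next to a larger population of resting follicular B cells. Transcription of this group is known to be controlled by protein complexes built on a core called MuvB, which binds a promoter element called CHR. It also depends on the factor NF-Y, which binds CCAAT boxes.

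The promoters of the mitosis genes carried these letters often, and 8 are shown because they belong to the genes for the proliferation marker, the entry kinase and its cyclin, the exit machinery, a spindle motor (Kif11) that followed the other members closely in these mice and the protease Espl1, which followed them less closely. RefSeq windows from 250 bases before to 50 bases after the transcription start on GRCm38.p6 were matched for 32 of the 39 genes. The sequences stop at the last base before the annotated start and are printed 5′ to 3′ on the strand of the gene. Capitals mark TTTGAA, a common form of the CHR, and CCAAT. Each was read on both strands, so that TTCAAA and ATTGG are the same motifs on the opposite strand.
Mki67, chr7:135716380-135716589, minus strand: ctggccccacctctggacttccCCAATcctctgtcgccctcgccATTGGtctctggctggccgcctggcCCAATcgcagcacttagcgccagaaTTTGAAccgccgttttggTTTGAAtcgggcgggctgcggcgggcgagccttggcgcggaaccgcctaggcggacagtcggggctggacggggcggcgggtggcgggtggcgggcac
Top2a, chr11:99024190-99024309, minus strand: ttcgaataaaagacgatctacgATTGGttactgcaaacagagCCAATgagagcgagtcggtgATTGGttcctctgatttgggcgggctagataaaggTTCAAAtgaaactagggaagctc
Cdk1, chr10:69352913-69353032, minus strand: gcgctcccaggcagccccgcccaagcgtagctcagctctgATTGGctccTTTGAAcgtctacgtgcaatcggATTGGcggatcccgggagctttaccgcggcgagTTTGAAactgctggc
Ccnb1, chr13:100786487-100786606, minus strand: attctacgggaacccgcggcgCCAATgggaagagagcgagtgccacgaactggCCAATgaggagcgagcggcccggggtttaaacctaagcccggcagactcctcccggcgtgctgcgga
Cdc20, chr4:118437344-118437463, minus strand: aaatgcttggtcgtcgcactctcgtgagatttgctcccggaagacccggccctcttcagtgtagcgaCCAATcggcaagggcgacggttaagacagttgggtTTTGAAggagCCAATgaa
Ube2c, chr2:164769809-164769928, plus strand: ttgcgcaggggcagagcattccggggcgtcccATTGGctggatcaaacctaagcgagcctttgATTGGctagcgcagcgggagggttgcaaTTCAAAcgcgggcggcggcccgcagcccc
Kif11, chr19:37376262-37376381, plus strand: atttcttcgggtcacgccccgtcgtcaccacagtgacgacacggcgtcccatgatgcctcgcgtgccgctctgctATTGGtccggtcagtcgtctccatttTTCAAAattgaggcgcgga
Espl1, chr15:102296173-102296292, plus strand: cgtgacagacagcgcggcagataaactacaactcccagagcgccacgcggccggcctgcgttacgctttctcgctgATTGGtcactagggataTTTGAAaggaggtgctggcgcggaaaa

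In the full window of 300 bases, TTTGAA was present in 25 of the 32 matched mitosis genes (78.1%), compared with 20.2% of all 27025 genes with a RefSeq promoter and 15.4% of the tested genes that matched. CCAAT was present in 78.1% of the matched mitosis genes and in 41.1% of all genes, and at least 2 copies were present in 53.1% and 13.3%, respectively. Both motifs occurred together in 68.8% of the matched mitosis genes, compared with 7.97% of all genes. The hits of the 2 motifs overlapped once, in Cdca8. The most CCAAT letters were counted in Top2a and Ube2c, with 6 each. In Cdk1, TTTGAA lay 15 and 71 bases before the start with CCAAT 48, 80 and 208 bases before it, the last beyond the printed stretch, and in Espl1 a single pair lay at 27 and 44 bases. The window of Ccnb1 held CCAAT 67 and 99 bases before the start and no TTTGAA, and the windows of Birc5, Mad2l1, Nuf2 and Nusap1 held neither. Of the matched genes in a separate list of 41 genes of DNA replication (S phase), 14.7% carried TTTGAA. The share was 53.4% in a list of 87 other mitosis genes. CCAAT was present in 58.8% of the matched S phase genes and 64.4% of the matched other mitosis genes. At least 2 copies were present in 32.4% and 38.4%, respectively. These counts describe letters in a window and not bound sites, and other forms of the CHR were not searched for.

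The values in the deposited table are transcript abundances that the authors call normalized TPM, a unit that divides by transcript length, so that levels of different genes can be set beside each other. All 39 mitosis genes reached a value of 1 or more in each of the 12 mice and were therefore among the 12590 genes tested with limma on log2(value + 0.5). Log2 fold changes below are stroke mice minus sham controls, with the standard error (SE) and the 95% confidence interval (CI), and the adjusted p is the Benjamini-Hochberg value over all genes tested. Totals of the table ran from 559570 in sham control 6 to 1404340 in sham control 1, and stroke mouse 6 stood apart by listing 30060 genes above 0, against at most 23947 in any other mouse. Because the table holds no read counts, the depth behind each value is unknown. Sources do not say how the separate mice were numbered. The limma p-values set each group difference against the spread between these 12 mice within their groups.

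Cells purified as B cells carried B cell markers at high levels in every mouse, with Pax5, a transcription factor that maintains B cell identity, between 249 and 373. The log2 fold change was negative for 5 of 8 B cell markers, with a median of -0.26. Cr2, the complement receptor of mature B cells, was the 1 marker called lower in stroke mice at an unadjusted p under 0.05 in limma. Over all tested genes, 1.69% were called lower. Values of Cr2 ran from 212 to 294 in sham controls. In stroke mice they ran from 47.1 in stroke mouse 5 to 213 at the highest, so that the groups overlapped slightly. The log2 fold change of Cr2 was -0.83 (p = 0.0156 and, by exact permutation, 0.00433, adjusted p = 0.748, limma). The part of this in the values of the mitosis genes was not tested. The mean log2 level of 8 B cell markers was lowest in stroke mouse 5 at 7.38 and lay between 7.99 and 8.58 in the other mice. Epithelial transcripts differed more between mice than any other marker list, with Epcam between 1.53 and 177 in sham controls and between 3.02 and 56.3 in stroke mice. All 5 tested genes of 10 epithelial markers had a negative log2 fold change, with a median of -1.64 and a smallest p of 0.0840 in limma. Of the markers of dividing crypt cells, Ascl2 was at most 0.227 and Lgr5 at most 3.11 in any mouse, and Olfm4 was at most 2.98, whereas Lyz1 and Defa24 of Paneth cells reached 68.6 and 189. The mean log2 level of the 6 crypt and Paneth markers lay between 1.14 and 2.51 in sham controls and between 1.38 and 2.48 in stroke mice. The part of epithelial transcripts in the differences given here was not tested. Levels in bulk libraries do not separate fewer dividing cells from less transcript per dividing cell.

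Most mitosis genes had a slightly higher mean in stroke mice, but no difference passed the test after adjustment over all genes. Of the 39 genes, 36 had a positive log2 fold change and 3 a negative one, whereas 48.6% of all tested genes were negative. These genes moved together across mice, as described below, so that their signs are not separate observations. The mean log2 level of the 39 genes was 4.27 ± 0.43 (SD) in sham controls and 4.47 ± 0.34 in stroke mice. The median log2 fold change was 0.18 for the mitosis genes and 0.01 over all tested genes, and the individual values ran from -0.13 for Ect2 to 0.46 for Mki67. Anln was the single mitosis gene with an unadjusted p under 0.05 in limma, and it was higher in stroke mice. In that direction, 4.42% of all genes passed the same threshold, compared with 1.69% in the direction of lower levels, so that 1 of 39 is no more than the background. None of the 12590 tested genes passed at an adjusted p under 0.05 in limma (0%), against 557 higher and 213 lower before adjustment. The paper reports genes called in both directions by its own test on these mice. In limma, the adjusted p of the mitosis genes ran from 0.791 to 0.994. In none of the 39 genes did the values of the 2 groups stay apart, compared with 0.437% of all tested genes. Differences of a moderate size in either direction remain possible, since the upper CI bounds ran from 0.26 to 1.10 and the lower bounds from -0.63 to 0.01 on the log2 scale.

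**Figure D1:**
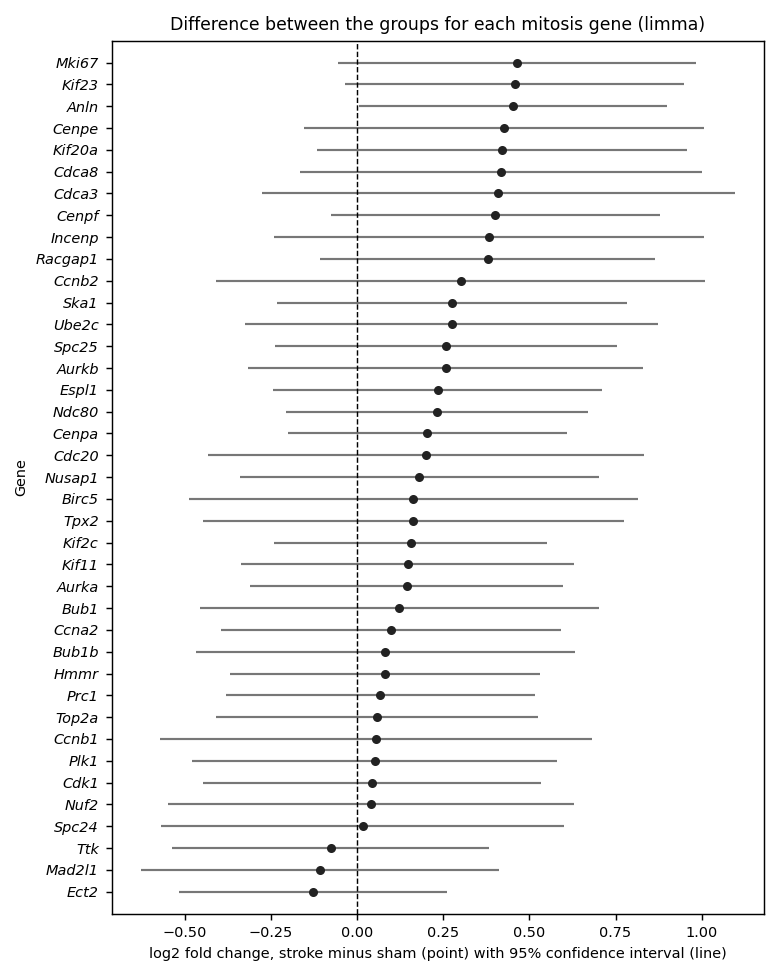
Log2 fold change of each mitosis gene between stroke mice and sham controls (horizontal axis), with 1 row per gene, points for the limma estimate and lines for the 95% confidence interval. All but the last 3 genes lie to the right of 0, and the interval excludes 0 for Anln alone.

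Mki67 encodes Ki-67, the protein that coats mitotic chromosomes and serves as the usual stain for dividing cells, and it had the highest mean of the 39 genes. Its values in sham controls were 52.4 at the lowest, 75.2 at the median and 156 at the highest, and in stroke mice 76.4, 106 and 171. Sham control 5 was second only to stroke mouse 3, the other 5 sham controls were at 77.5 or lower, and 5 of 6 stroke mice were above that. Means ± SD were 84.8 ± 35.9 and 114 ± 32.0, with a log2 fold change of 0.46 (SE 0.24, CI -0.05 to 0.98, p = 0.0753 and, by exact permutation, 0.117, adjusted p = 0.791, limma). Top2a, the topoisomerase that untangles sister chromatids, had values of 59.1, 81.3 and 132 in sham controls and 60.3, 82.5 and 131 in stroke mice. The groups covered almost the same range, and the log2 fold change was 0.06 (CI -0.41 to 0.52, adjusted p = 0.961, limma). Mki67 and Top2a are both read as proliferation markers, and the ratio of Mki67 to Top2a was 0.618, 0.810, 1.31, 1.21, 1.18 and 0.955 in sham controls 1 to 6 and lay between 1.22 and 1.43 in stroke mice. Sham control 3 lay among the stroke mice and the other 5 sham controls below all of them, with group means of 1.01 and 1.30. The lowest ratios were those of sham controls 1 and 2, which also had the highest totals (1404340 and 1386994) and the highest mean log2 level of epithelial markers (6.86 and 6.75), and the part of these in the ratio was not tested. The ratio was picked after the values were seen, and no test was made of it.

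Entry into mitosis is driven by the kinase Cdk1 with cyclins A and B, and by the kinases Plk1 and Aurka, which mature the spindle poles. Cdk1 had values of 25.7, 34.4 and 55.7 in sham controls and 25.7, 35.3 and 57.8 in stroke mice. Lowest, median and highest were thus nearly matched, and the log2 fold change was 0.04 (CI -0.45 to 0.54, adjusted p = 0.971, limma). Ccnb1, the main mitotic cyclin, had values of 11.4, 16.1 and 31.5 in sham controls and 11.2, 17.6 and 34.5 in stroke mice, and its log2 fold change was 0.05 (CI -0.57 to 0.68, adjusted p = 0.972, limma). Ccnb2, the second B-type cyclin, spread the most of all 39 genes, from 9.97 in sham control 6 to 46.4 in stroke mouse 3, a ratio of 4.65. Its medians were 19.7 in sham controls and 21.2 in stroke mice, and its log2 fold change was 0.30 (CI -0.41 to 1.01, adjusted p = 0.866, limma). Ccna2, the cyclin of replication and mitotic entry, had values of 14.2, 24.9 and 39.1 in sham controls and 21.7, 25.3 and 40.6 in stroke mice. The lowest 2 values were those of sham controls, yet the medians were close, and the log2 fold change was 0.10 (CI -0.39 to 0.59, adjusted p = 0.936, limma). Plk1 had values of 7.20, 14.6 and 21.1 in sham controls and 9.94, 14.3 and 24.2 in stroke mice, and its log2 fold change was 0.05 (CI -0.48 to 0.58, adjusted p = 0.969, limma). Aurka had values of 6.12, 8.58 and 15.2 in sham controls and 8.47, 9.44 and 14.2 in stroke mice. Sham controls held 3 values below and 1 above the whole stroke range of Aurka, with a log2 fold change of 0.14 (CI -0.31 to 0.60, adjusted p = 0.895, limma). Cdca3, an adaptor for the degradation of the entry inhibitor Wee1, had medians of 24.9 and 29.0 and a log2 fold change of 0.41 (CI -0.28 to 1.10, adjusted p = 0.826, limma).

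**Figure D2:**
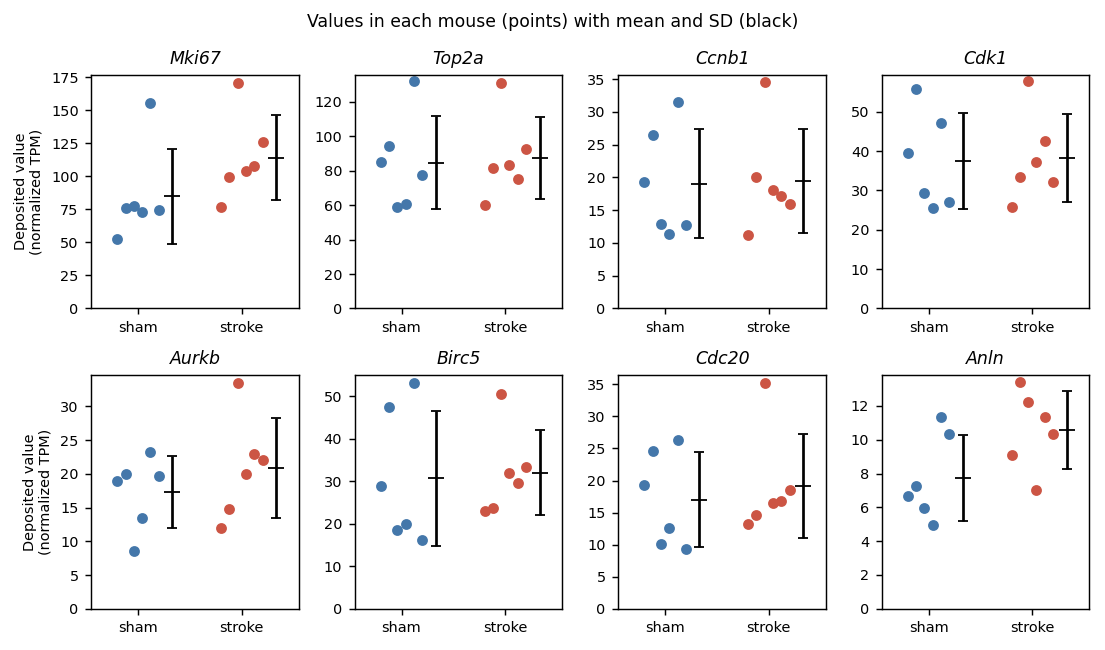
Deposited values (normalized TPM, linear axis from 0) of 8 mitosis genes in each mouse, with sham controls on the left and stroke mice on the right of each panel, and black bars for the mean and SD of 6 mice. The groups overlap in every panel, and in Mki67 and Cdc20 a single mouse of a group lies far above the other 5.

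The chromosomal passenger complex corrects wrong attachments of chromosomes to the spindle and later sits at the cleavage site. It consists of the kinase Aurkb, the scaffold Incenp, and Birc5 (survivin) and Cdca8 (borealin), which target it to centromeres. Aurkb had values of 8.59, 19.3 and 23.2 in sham controls and 12.0, 21.0 and 33.4 in stroke mice, and its log2 fold change was 0.26 (CI -0.31 to 0.83, adjusted p = 0.859, limma). Birc5 had values of 16.1, 24.3 and 53.1 in sham controls and 23.0, 30.7 and 50.4 in stroke mice. Sham controls held both the lowest 3 and the highest value of Birc5, and the log2 fold change was 0.16 (CI -0.49 to 0.82, adjusted p = 0.917, limma). Incenp was the second most abundant mitosis gene with a mean of 86.1, and it ran from 46.6 in stroke mouse 1 to 161 in stroke mouse 5. The log2 fold change of Incenp was 0.38 (CI -0.24 to 1.01, adjusted p = 0.821, limma), and that of Cdca8 was 0.42 (CI -0.17 to 1.0, adjusted p = 0.793, limma). Cdca8 values in all 6 stroke mice were above those of sham controls 3, 4 and 6, but sham controls 2 and 5 exceeded all stroke mice except stroke mouse 3.

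Centromere and kinetochore proteins build the platform on each chromosome to which spindle fibres attach. Cenpa, the histone H3 variant that marks centromeres, had values of 20.6, 25.2 and 32.2 in sham controls and 21.7, 28.5 and 46.0 in stroke mice. Stroke mice 5 and 3 exceeded all sham controls, and the other 4 lay within the sham range, with a log2 fold change of 0.20 (CI -0.20 to 0.61, adjusted p = 0.850, limma). Cenpe, a kinesin that moves chromosomes to the spindle equator, and Cenpf, a large kinetochore protein, had log2 fold changes of 0.43 and 0.40 with adjusted p = 0.793 and adjusted p = 0.791 in limma. Ndc80, Nuf2, Spc24 and Spc25 form the Ndc80 complex, the direct link to microtubules, and their proteins are needed in equal numbers. Their transcripts had means of 21.7, 15.9, 24.7 and 23.3 over all mice. The log2 fold changes were 0.23 for Ndc80, 0.04 for Nuf2, 0.02 for Spc24 and 0.26 for Spc25, with p between 0.274 and 0.952 in limma. Ska1, which helps the kinetochore follow shrinking microtubules, was the least abundant of the 39 genes with a mean of 3.91 and had a log2 fold change of 0.28 (adjusted p = 0.839, limma).

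The spindle checkpoint holds cells in mitosis until all chromosomes are attached. It was the group with the smallest difference, with a median log2 fold change of 0.003 over its 4 genes and signs that were split 2 to 2. The kinases Bub1 and Ttk had log2 fold changes of 0.12 (adjusted p = 0.932) and -0.08 (adjusted p = 0.949) in limma. Bub1b and Mad2l1, which are parts of the inhibitor of the anaphase-promoting complex, had log2 fold changes of 0.08 (adjusted p = 0.952) and -0.11 (adjusted p = 0.935) in limma. In Mad2l1 only stroke mouse 3 was above the sham mean.

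The 5 motors and microtubule proteins of the spindle had positive log2 fold changes over all 12 mice, and none passed the test. Without stroke mouse 3, those of Tpx2 (-0.00393) and Hmmr (-0.0325) were negative and that of Kif11 was 0.0194. Kif11, the motor that pushes spindle poles apart, had a log2 fold change of 0.15 (adjusted p = 0.902, limma), and Kif2c, which shortens microtubules at centromeres, one of 0.16 (adjusted p = 0.875, limma). Tpx2, which activates Aurka and nucleates microtubules, had a log2 fold change of 0.16 (adjusted p = 0.912, limma). Nusap1, a bundler of spindle microtubules, and Hmmr, a spindle pole protein, had log2 fold changes of 0.18 (adjusted p = 0.883) and 0.08 (adjusted p = 0.943) in limma.

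Exit from mitosis needs the anaphase-promoting complex, which tags cyclin B and securin for degradation, with Cdc20 as its activator and Ube2c as its ubiquitin-conjugating enzyme. Cdc20 had values of 9.35, 15.9 and 26.3 in sham controls and 13.3, 16.7 and 35.2 in stroke mice. The 5 stroke mice other than stroke mouse 3 lay within the sham range, and the log2 fold change was 0.20 (CI -0.43 to 0.83, adjusted p = 0.895, limma). Ube2c had values of 11.7, 22.9 and 37.5 in sham controls and 21.1, 25.0 and 48.2 in stroke mice, and its log2 fold change was 0.28 (CI -0.32 to 0.87, adjusted p = 0.859, limma). Espl1 (separase), the protease that cuts cohesin between sister chromatids, had medians of 10.5 and 14.6 and a log2 fold change of 0.23 (CI -0.24 to 0.71, adjusted p = 0.853, limma).

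Genes of the central spindle and of cytokinesis had the largest median log2 fold change of the 8 functional groups, at 0.40 over 6 genes. Anln encodes anillin, the scaffold that joins actin, septins and myosin at the cleavage furrow, and it had values of 4.94, 6.94 and 11.4 in sham controls and 7.02, 10.8 and 13.4 in stroke mice. Sham controls 5 and 6 lay among the stroke mice and stroke mouse 4 among the lower sham controls, whereas the other 4 sham controls were below 5 of the stroke mice. Means ± SD were 7.75 ± 2.53 and 10.6 ± 2.29, with a log2 fold change of 0.45 (SE 0.21, CI 0.01 to 0.90, limma p = 0.0470, adjusted p = 0.791, exact two-sided permutation p = 0.0693). The call of Anln was thus not shared by the permutation test, and it was lost in 6 of 10 other settings of the limma analysis, which changed the filter, the scaling or the trend, and when any of 8 single mice was left out. Kif23, the motor subunit of centralspindlin, which bundles the central spindle, had values of 29.3, 37.8 and 71.3 in sham controls and 39.3, 58.9 and 87.4 in stroke mice. For Kif23 the sham controls 5 and 6 lay among the stroke mice, and 5 stroke mice exceeded the sham mean. Its log2 fold change was 0.46 (SE 0.23, CI -0.03 to 0.95, p = 0.0654 and, by exact permutation, 0.106, adjusted p = 0.791, limma). Racgap1, the other subunit of centralspindlin, and Kif20a, a motor that carries the passenger complex to the central spindle, had log2 fold changes of 0.38 (adjusted p = 0.793) and 0.42 (adjusted p = 0.793) in limma. All 6 stroke values of Racgap1 were above its sham mean, although sham controls 1, 2 and 5 lay among them. Prc1, which cross-links the central spindle, had a log2 fold change of 0.07 (adjusted p = 0.952, limma). Ect2, the exchange factor that activates RhoA for the contractile ring, had the most negative value of all 39 genes at -0.13 (CI -0.52 to 0.26, adjusted p = 0.891, limma).

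The same mice were high for most of the genes. Stroke mouse 3 had the highest value for 21 of the 39 genes, sham control 5 for 13, stroke mouse 5 for 4 and stroke mouse 2 for 1. These first 2 mice were the 2 highest for 26 genes. The lowest value was that of sham control 3 for 12 genes, of sham control 6 for 9, of sham control 4 for 8 and of stroke mouse 1 for 7. Summed over the 39 genes, the values ran from 703 in sham control 4 to 1492 in sham control 5, and from 758 in stroke mouse 1 to 1632 in stroke mouse 3. On the scale of the mean log2 level, the sham controls lay between 3.88 and 4.95 and the stroke mice between 4.02 and 5.06. The highest value of a mitosis gene was between 1.96 and 4.65 times its lowest, and the SD of log2 values over the 12 mice had a median of 0.446 for the mitosis genes and of 0.313 for all tested genes.

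**Figure D3:**
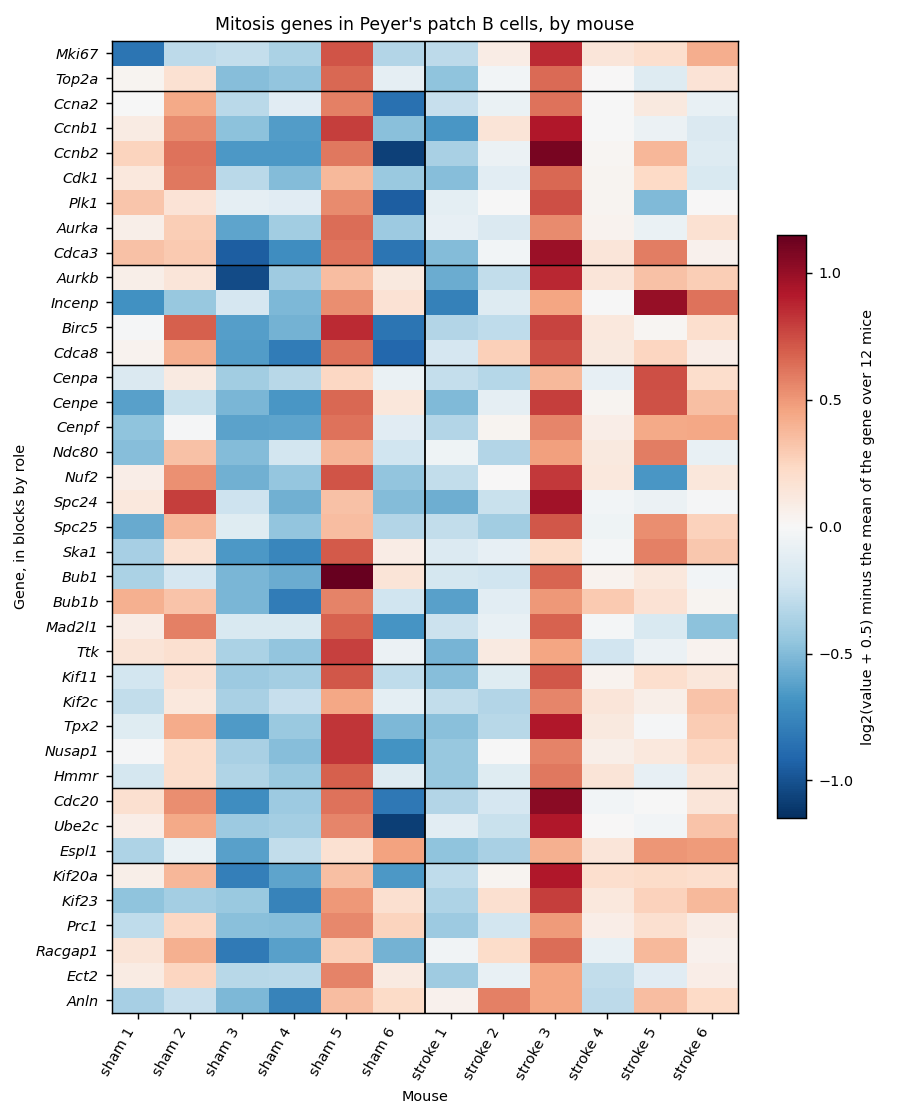
Log2(value + 0.5) of the 39 mitosis genes (rows, in blocks by role) in the 12 mice (columns), each minus the mean of the gene over all mice, with red for higher and blue for lower values and a vertical line between the groups. Sham control 5 and stroke mouse 3 are red for every gene, and sham controls 3 and 4 are blue for every gene.

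How far the genes moved together was described by the correlation of each gene with the mean of the other 38 across the 12 mice. The correlation ran from 0.557 to 0.979 with a median of 0.846, and it was at least 0.8 for 28 genes. Kif11 (0.979), Tpx2 (0.966) and Hmmr (0.940) followed the others most closely. Anln (0.557), Incenp (0.578), Espl1 (0.583) and Plk1 (0.618) followed them least, and these 4 were the only ones under 0.7. All points come from the same 12 libraries, and no test was made of these correlations.

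Part of this divergence was shared between genes. After the mean level of each mouse and each gene was removed, a single principal component held 45.5% of the remaining variance of the mitosis genes. Sham control 6 was at one end, followed by stroke mice 5 and 6, and sham controls 2 and 1 were at the other end. Incenp, Espl1, Cenpe, Kif23 and Anln were high in sham control 6 relative to the other mitosis genes, and Ccnb2, Plk1, Mad2l1, Ube2c and Cdc20 were low. The ratio of Incenp to Ube2c was 1.85 and 1.71 in sham controls 1 and 2, compared with 7.68 in sham control 6 and 6.51 in stroke mouse 5. The ratio of Espl1 to Plk1 was 0.513 and 0.702 in sham controls 1 and 2, compared with 2.30 in sham control 6 and 1.73 in stroke mouse 5. Both groups held mice from low to high, and the group means of the ratio of Incenp to Ube2c were 3.49 and 3.54. This component was correlated with the first principal component of all tested genes (r = 0.925, rho = 0.741, 12 mice). Sham control 6 also had the lowest total of the table and, with a mean log2 level of 0.995, the lowest epithelial markers, and sham controls 1 and 2 had the highest of both. The part of these values in the ratios was not tested. The component was looked for after the values were seen and is a description.

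**Figure D4:**
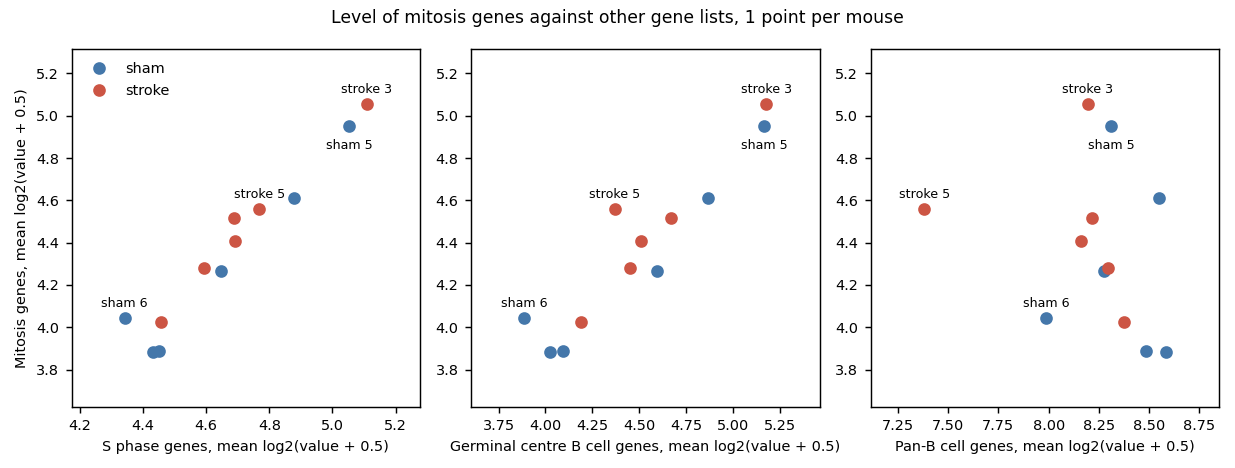
Mean log2 level of the 39 mitosis genes (vertical axis) against that of 41 S phase genes, of 10 germinal centre B cell genes and of 8 pan-B cell genes (horizontal axes), with 1 point per mouse. Points rise together in the first 2 panels with sham control 5 and stroke mouse 3 at the top, and show no such order in the third.

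The level of the mitosis genes in a mouse followed that of other genes of dividing cells. Across the 12 mice, the mean log2 level of the mitosis genes had r = 0.970 and rho = 0.944 with the S phase genes, which encode replication proteins such as the Mcm helicase and Pcna. Its correlation with the 10 germinal centre B cell genes was r = 0.933 and rho = 0.867, which include Bcl6, the master regulator of germinal centre B cells. Without sham control 5 and stroke mouse 3, the mice farthest from the median, r was 0.927 and 0.848. Within sham controls r was 0.963 and 0.952, and within stroke mice 0.990 and 0.920, for the S phase and germinal centre genes, respectively. The pan-B cell genes had r = -0.254 (-0.0376 within sham controls and -0.267 within stroke mice), the T cell genes r = -0.323 (-0.456 and -0.271) and the crypt genes r = 0.345 (0.266 and 0.454). The epithelial genes had r = -0.081 over all mice, but 0.475 within sham controls, -0.651 within stroke mice and -0.649 over all mice scaled to equal totals. The plasma cell genes had r = -0.183 over all mice, 0.133 within sham controls, -0.499 within stroke mice and -0.654 with equal totals, whereas the S phase and germinal centre genes kept 0.964 and 0.940 with equal totals. The same libraries give both values of each pair, and the correlations are descriptions without a test.

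Among neighbouring gene lists, no gene passed after adjustment. Of the 87 other mitosis genes, all of which were tested, 2 were higher and 1 was lower in stroke mice at an unadjusted p under 0.05, against 4.42% and 1.69% of all genes, so that these counts are no more than the background. The median log2 fold change was 0.12, and the 3 genes are described as values. Mybl2, the B-Myb transcription factor of late cell cycle genes, had values of 22.6, 32.9 and 48.8 in sham controls and 38.8, 48.2 and 60.3 in stroke mice. All 6 stroke mice lay above its sham mean, with a log2 fold change of 0.53 (SE 0.18, CI 0.14 to 0.92, p = 0.0114 and, by exact permutation, 0.0216, adjusted p = 0.748, limma). Cenpn, which reads Cenpa nucleosomes, had medians of 6.49 and 11.7 and a log2 fold change of 0.69 (SE 0.25, p = 0.0178 and, by exact permutation, 0.0368, adjusted p = 0.748, limma). Mis18a, which is needed to load new Cenpa, had the opposite sign, with medians of 15.5 and 11.8 and a log2 fold change of -0.34 (SE 0.13, p = 0.0229 and, by exact permutation, 0.0216, adjusted p = 0.772, limma). Of the 41 S phase genes, 0 passed at an unadjusted p under 0.05 in limma, and their median log2 fold change was 0.08. These counts depended on single mice as well. Without sham control 5, 14 of the 87 other mitosis genes and 3 of the 41 S phase genes had an unadjusted p under 0.05, when 4.35% of all genes were called higher and 1.45% lower. Counted in either direction, the number of other mitosis genes was 8 without sham control 6, where 7.39% of all genes were called higher and 9.18% lower. It was 8 without stroke mouse 1, with 4.78% and 2.38% of all genes, and 5 without stroke mouse 2, with 4.72% and 1.83%. The median log2 fold change of the other mitosis genes ran from 0.07 without stroke mouse 3 to 0.21 without sham control 5. That of the S phase genes ran from -0.02 without stroke mouse 3, with 21 negative genes, to 0.18 without sham control 5, with 6. The S phase genes had 22 negative values without sham control 6, 7 without sham control 2 and 6 without stroke mouse 1. Of the 9 tested germinal centre genes, 0 passed the same threshold, with 7 positive and 2 negative values and a median of 0.13.

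**Figure D5:**
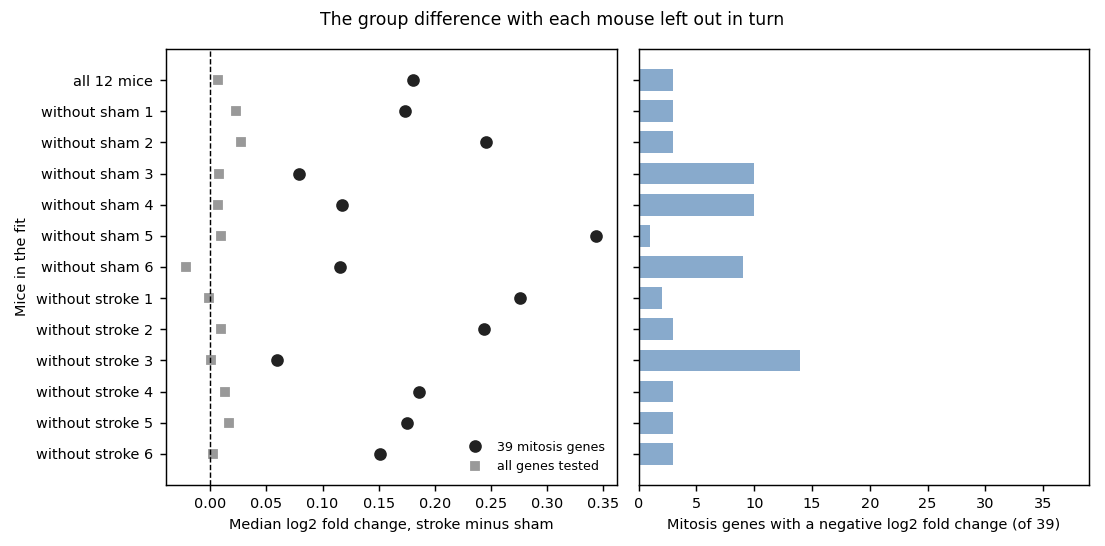
Median log2 fold change of the 39 mitosis genes (black points) and of all tested genes (grey squares) on the left, and the number of mitosis genes with a negative log2 fold change on the right, in limma analyses of all 12 mice and of 11 mice without the one named. The median stays above 0 throughout, and the number of negative genes reaches 14 without stroke mouse 3.

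The share of positive differences depended on single mice. Without stroke mouse 3 the median log2 fold change of the mitosis genes was 0.06 and 14 of 39 were negative. Without sham control 3 the median was 0.08 with 10 negative genes, without sham control 4 it was 0.12 with 10, and without sham control 6 it was 0.12 with 9. Leaving out sham control 5 raised it to 0.34 with 1 negative gene, and leaving out stroke mouse 1 raised it to 0.28 with 2. Without stroke mouse 6, which listed the most genes above 0, it was 0.15 with 3 negative genes, and without stroke mouse 5, which had the lowest B cell markers, it was 0.18 with 3. The number of mitosis genes with an unadjusted p under 0.05 was 7 without sham control 5, where 4.35% of all genes were called higher and 1.45% lower. It was 6 without stroke mouse 1, where 4.78% and 2.38% of all genes were called, and all these mitosis genes were higher in stroke mice. Without sham control 2 it was 2, with 3.32% and 1.15% of all genes, and without sham control 6 it was also 2, with 7.39% and 9.18%. It was 1 without stroke mouse 4, with 3.93% and 1.35% of all genes, and 0 without any of the other 7 mice in turn, where 3.13% to 4.72% of all genes were called higher and 1.26% to 1.83% lower. When each mouse was scaled to the same total, 3 mitosis genes passed (Cdca8, Kif20a and Racgap1), all higher in stroke mice, when 2.76% of all genes were called higher and 0.548% lower. Of the mitosis genes 1 was then negative and the median was 0.30, but the median of all tested genes then moved from 0.01 to 0.13.

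Some values are shared with other gene models. Transcripts of Kif20a and Prc1 overlap those of Cdc23 and Rccd1 on the opposite strand over 1271 and 911 exonic bases, and those of Ccna2 overlap Exosc9 over 510. Use of strand in the quantification is not given in the sources used here, so that reads from these stretches cannot be told apart. Racgap1 has a copy with 98.2% identity over 488 bases with a mean value of 6.77, and Ndc80 one with 95.05% identity over 303 bases with a mean of 10.95. The 5 copies of Ccnb1 with at least 95% identity were all below 0.3 in every mouse.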

How the data were processed

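RNA-seq of PP B cells from 12 mice was analysed from the deposited gene table. According to the methods and the submitters' processing notes, the authors ran FastQC and Trimmomatic 0.39 on the reads, kallisto 0.48.0 with GRCm38 transcripts for abundances, and sleuth 0.30.0 in R 4.1.2 for their own tests. The deposited values are a signal per gene that the authors call normalized TPM. Columns sum to different totals, and the scaling behind them is not given in the sources used here. Plain TPM had been assumed in planning the tests. As the sums differed, a log-scale test suited to any such signal was kept, and equal totals were tried as an alternative.

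Genes that reached 1 in all mice were tested as log2(value + 0.5) with limma 3.58.1 in R 4.3.3, two-sided, with Benjamini-Hochberg adjustment. The pseudocount makes fold changes of low genes smaller. The test was checked on simulated data. Single genes were also compared with exact permutation tests over all assignments of 6 mice to each group. Levels of a list are means of log2 values. Near copies were searched with blastn 2.17.0 in GENCODE M21 transcripts, and promoters were read from RefSeq windows of GRCm38.p6. The members, the other lists and the genes described in full were chosen with earlier results of these data known. Described in full are the common proliferation markers, any member with an unadjusted p under 0.05 and the 3 with the smallest p. Alternatives were other pseudocounts, filters and scalings, a replicate block, sample quality weights, an intensity trend and leaving out each mouse.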

Additional observations from a re-analysis of the deposited data

Results flagged for a closer look

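In 104 sets of 6 values, formed by each mitosis gene and each list level within each group, the gap between the most extreme mouse and the next was compared with the whole range, and 5 gaps were above Dixon's 95% critical value. Chance flags about 1 in 20 such sets. In sham controls, Mki67 was highest in sham control 5, with a gap of 0.642 of the range. In stroke mice, Cdc20 and Spc24 were highest in stroke mouse 3, with gaps of 0.656 and 0.64. The mean level of the B cell markers was lowest in stroke mouse 5 among the stroke mice, with a gap of 0.784. The mean level of the erythroid markers was highest in sham control 3 among the sham controls, with a gap of 0.649. The log2 fold change of Mki67 was 0.66 without sham control 5 and 0.34 without stroke mouse 3, compared with 0.46 over all mice. Without stroke mouse 3, that of Cdc20 was 0.0133, compared with 0.20, and that of Spc24 was -0.17, compared with 0.02.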

How the results depend on the processing

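No mitosis gene passed at an adjusted p under 0.05 in any setting that was run. The number with an unadjusted p under 0.05, 1 in the reported analysis, was 1 with a pseudocount of 0.1 or 1. It was 0 with a filter on a mean of at least 1, no filter, median-of-ratios scaling, quantile normalization or an intensity trend. In these settings, 3% to 4.47% of all genes were called higher and 1.1% to 2.6% lower. The number was 3 with equal totals, where 1 gene was negative and 2.76% of all genes were called higher and 0.548% lower. It was 5 with sample quality weights, where 6.88% and 5.58% were called. Over the analyses without 1 mouse, it ran from 0 to 7, the number of negative genes from 1 to 14 and the median log2 fold change from 0.06 to 0.34. Leaving out sham control 5 and stroke mouse 3 together, chosen after seeing the data, gave 4 genes (all genes, 4.08% higher and 1.14% lower), 5 negative genes and a median of 0.21, and Cdk1 (-0.00531) and Spc24 (-0.11) became negative. Signs turned for Mad2l1 (0.0174) and Ttk (0.0357) with equal totals, for Ttk (0.0315) with sample quality weights and for Spc24 (-0.00550) with median-of-ratios scaling. With each mouse left out, 13 genes crossed 0, with ranges of -0.0659 to 0.20 for Top2a, -0.0618 to 0.22 for Ccna2, -0.12 to 0.22 for Ccnb1, -0.0837 to 0.17 for Cdk1, -0.13 to 0.17 for Plk1, -0.12 to 0.19 for Nuf2, -0.17 to 0.18 for Spc24, -0.0694 to 0.22 for Bub1b, -0.25 to 0.0180 for Mad2l1, -0.18 to 0.0718 for Ttk, -0.00393 to 0.34 for Tpx2, -0.0325 to 0.23 for Hmmr and -0.0229 to 0.19 for Prc1. The cause was not tested. Replicate numbers recur in both groups, but deviations of same-numbered mice were correlated over 0.1 in 4 of 6 numbers only, and 2 of 6 sham controls correlated best with their own number, so they were not treated as pairs. A fit with a replicate block called 5 genes (Incenp, Anln, Kif23, Cenpe and Mki67) at an unadjusted p under 0.05, with a smallest adjusted p of 0.468 in limma, when 6.12% of all genes were called higher and 3.21% lower. The precision is limited by 6 mice per group, and depth is unknown.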
